A study of Homo sapiens with 6 samples.

Results

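The genes described here encode the enzymes and carriers that activate fatty acids, move them into mitochondria and oxidise them in mitochondria and peroxisomes. They were taken by name from a list of 32 symbols, and all 32 were found, with 1 entry each, among the 27394 gene names of a count table. The table covers RNA-seq of Huh7, an established human liver cancer line (hepatocellular carcinoma), grown in DMEM with fetal bovine serum and antibiotics in both groups. A short hairpin RNA (shRNA) against CTSV, which encodes the lysosomal protease cathepsin V, was present in 3 libraries (genotype label CTSV knockdown), and 3 libraries carried a control shRNA (genotype label WT). How many shRNAs against CTSV were used, and whether the cells were clones, is not stated in the labels. Nothing in the labels says that libraries of 1 group were separate cultures, and the p-values therefore rest on a spread that may be technical. Positions are those of the deposited table on hg38.

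Library totals lay between 16258803 and 18106207 counts. CTSV itself was at 18.4, 15.996 and 16.3 CPM in CTSV shRNA libraries, against 42.3, 44.5 and 40.99 CPM in control libraries, with levels in counts-per-million units (CPM) after TMM scaling of the libraries. CTSV fell by 1.34 on the log2 scale (SE 0.0958), to 0.396 times the control level (edgeR adjusted p = 7.2e-14). All 10 hepatocyte markers that were looked up had reads in each library, with summed levels of 41558 to 42602 CPM in CTSV shRNA libraries and 34060.0 to 34804 CPM in control libraries. This sum is carried by ALB, AFP and APOB; 6 of the 10 markers were called higher, TTR was called lower and APOA1, APOA2 and FGB were not called. Of the markers of other liver cells, the 3 leukocyte genes analysed summed to 56.4 to 62.1 CPM with the CTSV shRNA and 75.2 to 84.2 CPM with the control shRNA, nearly all of it LYZ, with CD3E under 1 CPM. The 3 endothelial genes summed to 19.8 to 22.1 and 18.3 to 23.8 CPM, mostly PECAM1, with LYVE1 under 1 CPM, and the 3 stellate and fibroblast genes to 3.52 to 6.06 and 3.61 to 5.67 CPM, with the CTSV shRNA and the control shRNA in that order. The 3 cholangiocyte genes summed to 169 to 183 CPM with the CTSV shRNA and 172 to 189 CPM with the control shRNA, but EPCAM was called higher (1.08, edgeR adjusted p = 1.26e-08) and SOX9 lower (-0.17, edgeR adjusted p = 0.0139) on the log2 scale. The 4 brown fat and muscle genes summed to 4.84 to 8.65 and 6.84 to 7.97 CPM. Mitochondrially encoded genes took 11.4 to 11.8% of counts in CTSV shRNA libraries and 9.09 to 9.52% in control libraries. Without the mitochondrially encoded genes, 8 of the 32 oxidation genes were higher and 8 lower, as with them. The part of these marker differences in the results was not tested.

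Fatty acids enter oxidation as acyl-CoA esters made by acyl-CoA synthetases. Long chains cross the mitochondrial membranes as carnitine esters, and in the matrix each turn of the spiral removes an acetyl-CoA by dehydrogenation, hydration, a further dehydrogenation and thiolysis. Electrons from the first step pass through the electron transfer flavoprotein to the respiratory chain. Peroxisomes shorten very long and branched chains with their own set of enzymes, and in hepatocytes several genes of both compartments are known targets of the nuclear receptor PPARA.

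Start regions of 4 of these genes are shown. ACSL3 had the smallest adjusted p among the genes that fell, and CROT had the largest rise. FABP1 is shown for a motif match and HADHA for its shared start region with HADHB. FABP1 and HADHA were added after their values were seen. Sequences are from RefSeq on GRCh38.p14, in the direction of the gene, and end where the gene begins in the deposited table or, for CROT, at the RefSeq start site. Capitals mark a match to CCAAT in CROT and a match on the reverse strand to the repeat AGGTCA, any base, AGGTCA with up to 2 mismatches in FABP1. ACSL3 also has a match to CCAAT, at -75 from its RefSeq start site, but the printed sequence ends before it.
ACSL3, chr2:222860786-222860933, plus strand: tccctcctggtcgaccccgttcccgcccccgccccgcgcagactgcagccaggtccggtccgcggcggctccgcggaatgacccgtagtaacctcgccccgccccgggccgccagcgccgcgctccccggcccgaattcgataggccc
CROT, chr7:87345414-87345663, plus strand: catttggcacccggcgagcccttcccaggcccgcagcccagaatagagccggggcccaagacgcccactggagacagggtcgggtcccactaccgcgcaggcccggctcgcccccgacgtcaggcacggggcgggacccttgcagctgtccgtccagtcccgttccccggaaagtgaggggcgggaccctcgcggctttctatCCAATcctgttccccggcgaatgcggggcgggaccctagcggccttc
FABP1, chr2:88128117-88128312, minus strand: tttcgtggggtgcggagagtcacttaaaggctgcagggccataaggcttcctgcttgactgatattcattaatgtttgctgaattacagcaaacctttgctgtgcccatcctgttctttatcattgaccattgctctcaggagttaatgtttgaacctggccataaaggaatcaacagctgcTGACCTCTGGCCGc
HADHA, chr2:26244727-26244882, minus strand: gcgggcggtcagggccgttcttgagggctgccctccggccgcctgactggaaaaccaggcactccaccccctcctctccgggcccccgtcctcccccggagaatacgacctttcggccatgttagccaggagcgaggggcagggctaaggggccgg
RefSeq start regions of 300 bases, 250 of them before the start site, were found for 25 of the 32 genes, and for each gene the most upstream start was used. CRAT, DECR1, ETFDH, EHHADH, ECH1, ACAA1 and ACOX2 had no start region there and were not searched for motifs. The direct repeat of AGGTCA with 1 base between the copies, the form of site bound by PPARA with its partner RXR, was searched on both strands. It had 0 exact matches among the 25 and, with up to 2 mismatches, was found in 2, ACAA2 and FABP1 (8.0%, against 3.0% of 27305 start regions of the same length). FABP1 rose and ACAA2 fell with the CTSV shRNA. The half-site AGGTCA, which the longer motif contains, was in 2 of 25 (8.0%, against 14.0% of all). CCAAT was in 6 of 25 (24%, against 35.7%), and the ETS motif CCGGAAG in 5 of 25 (20%, against 10.6%). The median GC content was 67.0% over the 25 start regions and 58.3% over all 27305. The motif shares were not adjusted for this difference, and its part in them was not tested. The estrogen-related receptor motif TCAAGGTCA, the NRF1 motif (GCGCA followed by TGCGC) and the C/EBP-ATF motif TGATGCAA had no exact match in the 25 windows.

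The oxidation genes moved in both directions by modest amounts. Of 31 genes that passed the filter on low counts, 8 rose, 8 fell and 15 were not called at an adjusted p under 0.05. Of all 15968 tested genes, 18.7% rose and 21.6% fell (40.3% in either direction). With offsets for transcript length and GC content, calls over all genes moved toward falls, with 2236 higher and 4706 lower (32.2% of calls higher), against 2982 and 3451 without them (46.4%), and the 31 had 8 of each under both. The share among the 31 was 25.8% in each direction, not far from those of all genes. In bulk RNA, fewer cells of a kind and less RNA per cell cannot be told apart. The libraries of the 2 groups did not overlap for 18 of the 31 genes, 10 of them higher (32.3%) and 8 lower (25.8%) with the CTSV shRNA, against 24.1% and 25.0% of all tested genes. The median log2 fold change was 0.02 over the 31 and 0.02 over all tested genes. No called gene changed 2-fold, and 5 changed at least 1.5-fold: CROT, ACSL5 and FABP1 rose and ACSL1 and ACSL3 fell. Without control replicate 3, 5 genes rose and 8 fell. In the authors' deposited table, whose fold changes run control over CTSV shRNA, 7 of the 32 genes were higher with the CTSV shRNA and 8 were lower at an adjusted p under 0.05.

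**Figure D1:**
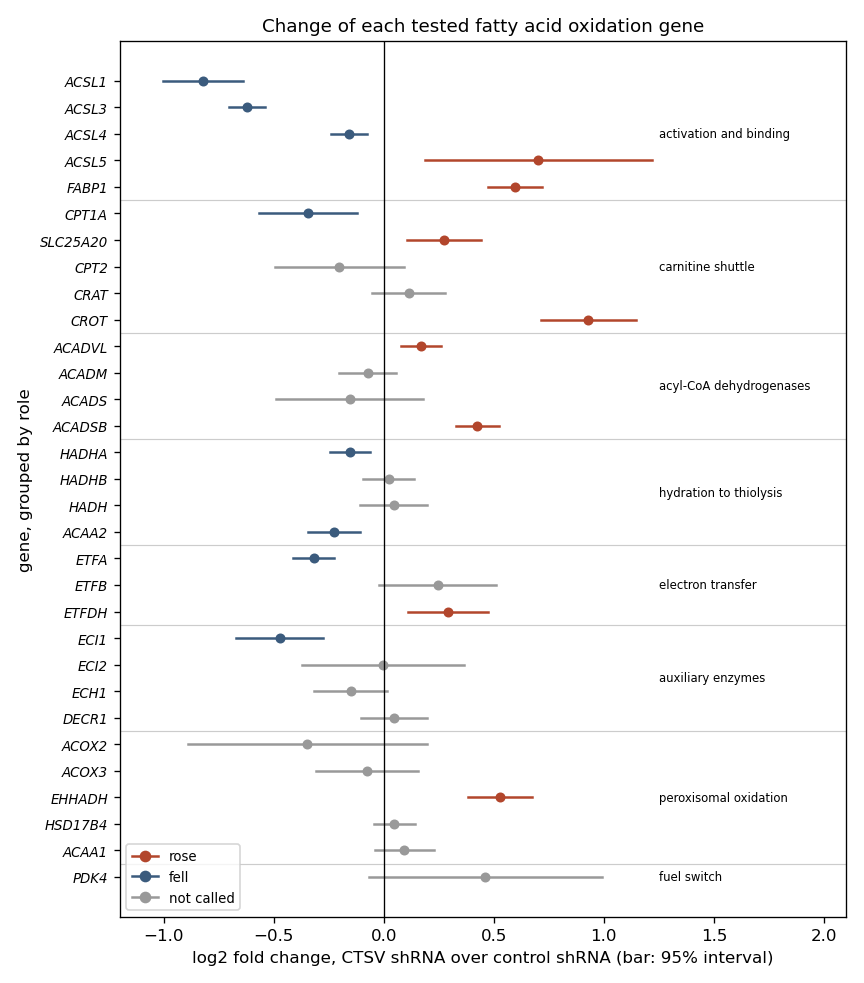
Log2 fold change of each tested gene (CTSV shRNA over control shRNA) with its 95% interval, grouped by role and coloured by call (higher, lower or not called at an edgeR adjusted p under 0.05). The 8 rises and 8 falls are spread over 7 of the 8 roles, and the widest intervals belong to genes with few counts such as ACOX2, PDK4 and ACSL5.

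**Figure D2:**
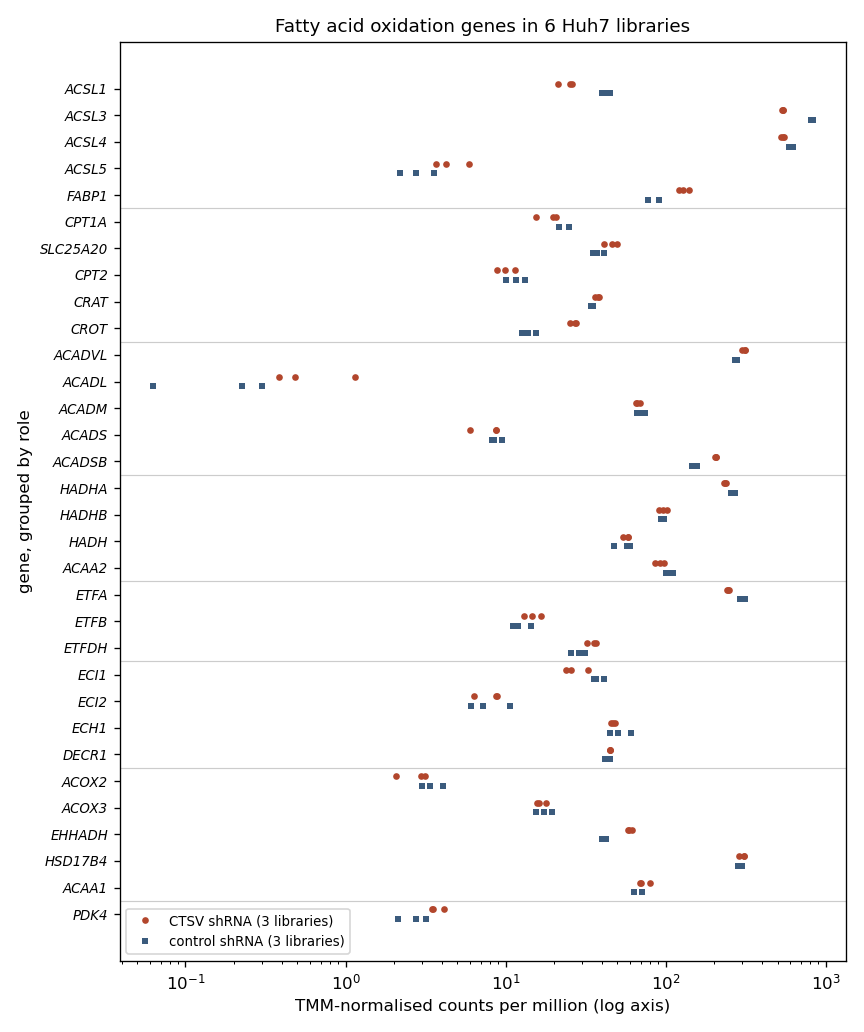
TMM-normalised level (CPM) in each of the 6 libraries (log axis) for all 32 genes, grouped by role, with CTSV shRNA libraries as circles above control libraries as squares. Mean levels in CTSV shRNA libraries ran from 0.673 CPM for ACADL to 540.1 CPM for ACSL4, and 26 genes had at least 10 CPM in both groups.

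All 5 genes of fatty acid activation and binding passed the test, 2 up and 3 down. ACSL3 (chromosome 2, 222860934 to 222944639, plus strand), an acyl-CoA synthetase of the endoplasmic reticulum and lipid droplets, was at 529, 541 and 539.9 CPM in CTSV shRNA libraries, against 830.4, 814 and 833 CPM in control libraries. The 3 CTSV shRNA libraries lay far below all 3 control libraries, and the spread within each group was small against that gap. ACSL3 fell by 0.62 on the log2 scale (SE 0.0407), to 0.650 times the control level (edgeR adjusted p = 6.36e-15). ACSL1 (chromosome 4, 184755595 to 184826818, minus strand), the main long-chain synthetase of liver and fat, was at 21.3, 25.9 and 25.4 CPM in CTSV shRNA libraries, against 45.02, 39.8 and 43.4 CPM in control libraries. It fell by 0.82 on the log2 scale (SE 0.0930), to 0.566 times the control level (edgeR adjusted p = 4.49e-09), and the groups did not overlap. ACSL4 (chromosome X, 109624244 to 109733403, minus strand), a synthetase that prefers arachidonic acid, was at 549, 527 and 544 CPM in CTSV shRNA libraries, against 623, 599 and 585 CPM in control libraries. ACSL4 fell by 0.16 on the log2 scale (SE 0.0425), to 0.896 times the control level (edgeR adjusted p = 0.00287). With offsets for transcript length and GC content, its log2 fold change was -0.25.

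ACSL5 (chromosome 10, 112374018 to 112428380, plus strand), a synthetase of mitochondria and endoplasmic reticulum, went the other way from a low level. It was at 4.23, 5.88 and 3.69 CPM in CTSV shRNA libraries, against 2.19, 3.55 and 2.74 CPM in control libraries. The groups did not overlap, and it rose by 0.70 on the log2 scale (SE 0.263), to 1.63 times the control level (edgeR adjusted p = 0.0312). The call was lost without CTSV shRNA replicate 2 (edgeR adjusted p = 0.227), without control replicate 1 (0.137) or 3 (0.0651), and with DESeq2 (0.0884). Exons of ACSL5 overlap those of ZDHHC6 (1222 to 1349 counts with the CTSV shRNA, 1229 to 1364 with the control shRNA) on the opposite strand over 144 bases. Whether counting used the strand is not stated, and the part of this overlap was not tested. FABP1 (chromosome 2, 88122982 to 88128116, minus strand), the liver fatty acid binding protein, was at 141, 129 and 121 CPM in CTSV shRNA libraries, against 90.3, 90.4 and 77.7 CPM in control libraries. All 3 CTSV shRNA libraries exceeded all 3 control libraries, and FABP1 rose by 0.60 on the log2 scale (SE 0.0635), to 1.51 times the control level (edgeR adjusted p = 1.16e-09).

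Scaled by exon length, the order of the synthetases changed between the groups. ACSL3 had 74.1 ± 0.882 CPM per kilobase of exon in CTSV shRNA libraries and 114 ± 1.38 in control libraries (SD, n = 3 each), and ACSL4 had 84.2 ± 1.79 and 93.9 ± 2.97. On this scale ACSL4 was the highest of all 32 genes with the CTSV shRNA, and ACSL3 was the highest with the control shRNA, in each case in all 3 libraries. The order with the CTSV shRNA depends on the annotated exon lengths (6415 bases for ACSL4, 7240 for ACSL3). In CPM, the log2 ratio of ACSL4 to ACSL3 was 0.053, -0.037 and 0.011 in CTSV shRNA libraries. ACSL1 had 3.85 ± 0.399 and 6.80 ± 0.428 CPM per kilobase and ACSL5 1.09 ± 0.269 and 0.667 ± 0.162, both far below the other synthetases in both groups.

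In the carnitine shuttle, 2 of 5 genes rose, 1 fell and 2 were not called. CROT (chromosome 7, 87345681 to 87399795, plus strand), the peroxisomal carnitine octanoyltransferase that exports shortened chains, was at 27.7, 25.3 and 27.01 CPM in CTSV shRNA libraries, against 12.7, 15.5 and 13.8 CPM in control libraries. Every CTSV shRNA library was above every control library, and CROT rose by 0.93 on the log2 scale (SE 0.111), to 1.90 times the control level (edgeR adjusted p = 1.35e-08), the largest rise among the 31 tested genes. CPT1A (chromosome 11, 68754620 to 68844410, minus strand), the outer-membrane acyltransferase that limits the entry of long chains into mitochondria, was at 20.6, 15.6 and 19.7 CPM in CTSV shRNA libraries, against 24.7, 24.8 and 21.5 CPM in control libraries. It fell by 0.34 on the log2 scale (SE 0.113), to 0.788 times the control level (edgeR adjusted p = 0.0142), and its highest CTSV shRNA library lay close to its lowest control library. The call was lost without CTSV shRNA replicate 2 (edgeR adjusted p = 0.135) and without control replicate 1 (0.0536).

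SLC25A20 (chromosome 3, 48856931 to 48898993, minus strand), the carrier that exchanges acylcarnitine for carnitine across the inner membrane, was at 46.3, 49.6 and 41.4 CPM in CTSV shRNA libraries, against 37.4, 40.98 and 34.9 CPM in control libraries. The groups were separated by a narrow gap, and SLC25A20 rose by 0.27 on the log2 scale (SE 0.0853), to 1.21 times the control level (edgeR adjusted p = 0.00932). This call was lost without CTSV shRNA replicate 2 (edgeR adjusted p = 0.0918) and without control replicate 3 (0.0699). CPT2, which returns the chain to CoA in the matrix, averaged 10.1 ± 1.33 CPM with the CTSV shRNA and 11.6 ± 1.59 CPM with the control shRNA (SD, n = 3 each), with a log2 fold change of -0.20 and a 95% interval of -0.49 to 0.090. CRAT, the acetyltransferase for short chains, averaged 37.4 ± 1.06 CPM with the CTSV shRNA and 34.6 ± 0.581 CPM with the control shRNA (SD, n = 3 each), with a log2 fold change of 0.11 and a 95% interval of -0.052 to 0.28. Neither was called, although for CRAT all 3 CTSV shRNA libraries were above the control libraries.

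Of the 5 acyl-CoA dehydrogenase genes, which take the first oxidation step for chains of different length, 2 rose, 2 were not called and ACADL did not pass the filter. ACADSB (chromosome 10, 123008979 to 123058311, plus strand), whose product acts on short branched chains from isoleucine, was at 207, 204 and 205 CPM in CTSV shRNA libraries, against 157, 145 and 156 CPM in control libraries. The groups lay far apart for this gene, and ACADSB rose by 0.43 on the log2 scale (SE 0.0506), to 1.34 times the control level (edgeR adjusted p = 1.26e-08). ACADVL (chromosome 17, 7217125 to 7225273, plus strand), the very-long-chain enzyme of the inner membrane, was at 313, 312 and 301 CPM in CTSV shRNA libraries, against 273, 271 and 279.8 CPM in control libraries. ACADVL rose by 0.17 on the log2 scale (SE 0.0457), to 1.12 times the control level (edgeR adjusted p = 0.0029), with no overlap between the groups. The medium-chain gene ACADM averaged 66.9 ± 1.91 CPM with the CTSV shRNA and 70.4 ± 4.02 CPM with the control shRNA (SD, n = 3 each), with a log2 fold change of -0.074 and a 95% interval of -0.20 to 0.056, and the short-chain gene ACADS averaged 7.83 ± 1.59 CPM with the CTSV shRNA and 8.70 ± 0.662 CPM with the control shRNA (SD, n = 3 each), with a log2 fold change of -0.16 and a 95% interval of -0.49 to 0.18. ACADL, the long-chain enzyme, had 19, 8 and 7 raw counts in CTSV shRNA libraries and 4, 5 and 1 in control libraries, and without the filter its edgeR adjusted p was 0.147.

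For the later steps of the mitochondrial spiral, 2 of 4 genes fell and 2 were not called. HADHA (chromosome 2, 26190635 to 26244726, minus strand) and HADHB encode the alpha and beta subunits of the trifunctional protein, which carries out the hydratase, dehydrogenase and thiolase steps for long chains. Their RefSeq start sites face away from each other on chromosome 2, at 26244632 for HADHA and 26244939 for HADHB, with 306 bases between them. The HADHA sequence printed above lies in the gap between these RefSeq sites. In the deposited table, HADHB begins at 26243170 on the plus strand, inside the span of HADHA, so the 2 gene spans overlap there. HADHA was at 233, 239 and 236 CPM in CTSV shRNA libraries, against 269.5, 257 and 259.9 CPM in control libraries. All 3 CTSV shRNA libraries were below the control libraries, and HADHA fell by 0.15 on the log2 scale (SE 0.0468), to 0.900 times the control level (edgeR adjusted p = 0.00865). HADHB was at 91.3, 102 and 96.8 CPM in CTSV shRNA libraries, against 93.5, 94.7 and 96.9 CPM in control libraries, with the groups overlapping and a log2 fold change of 0.024 and a 95% interval of -0.092 to 0.14.

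ACAA2 (chromosome 18, 49782167 to 49813960, minus strand), the matrix thiolase that also acts on shorter chains, was at 97.4, 91.8 and 85.2 CPM in CTSV shRNA libraries, against 108, 111 and 101 CPM in control libraries. The groups did not overlap, and ACAA2 fell by 0.23 on the log2 scale (SE 0.0609), to 0.856 times the control level (edgeR adjusted p = 0.00301). HADH, the dehydrogenase for short and medium chains, averaged 56.8 ± 2.43 CPM with the CTSV shRNA and 55.1 ± 6.47 CPM with the control shRNA (SD, n = 3 each), with a log2 fold change of 0.045 and a 95% interval of -0.11 to 0.20 and was not called.

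The electron transfer genes moved unequally, with 1 up, 1 down and 1 not called. ETFA (chromosome 15, 76215355 to 76311472, minus strand), the alpha subunit of the flavoprotein, was at 244, 249.8 and 240.5 CPM in CTSV shRNA libraries, against 309, 314 and 292 CPM in control libraries. It lay lower in every CTSV shRNA library than in any control library, and fell by 0.32 on the log2 scale (SE 0.0471), to 0.802 times the control level (edgeR adjusted p = 9.39e-07). ETFB, the beta subunit, was at 16.8, 14.7 and 13.04 CPM in CTSV shRNA libraries, against 11.998, 14.4 and 11.1 CPM in control libraries, with overlapping groups and a log2 fold change of 0.24 and a 95% interval of -0.020 to 0.51. ETFDH (chromosome 4, 158672125 to 158709623, plus strand), the inner-membrane oxidoreductase that passes the electrons to ubiquinone, was at 35.4, 32.3 and 36.97 CPM in CTSV shRNA libraries, against 31.1, 28.7 and 25.7 CPM in control libraries. ETFDH rose by 0.29 on the log2 scale (SE 0.0937), to 1.22 times the control level (edgeR adjusted p = 0.0118), with a narrow gap between the groups. That call was lost without CTSV shRNA replicate 3 (edgeR adjusted p = 0.0619) and without control replicate 3 (0.0944). Exons of ETFDH overlap those of C4orf46 over 131 bases and of PPID over 490 bases, both on the opposite strand; PPID had 691 to 781 counts with the CTSV shRNA and 828 to 987 with the control shRNA.

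Of the 4 auxiliary enzymes that handle unsaturated chains, 1 fell and 3 were not called. ECI1 (chromosome 16, 2239395 to 2252300, minus strand), a mitochondrial isomerase that shifts double bonds, was at 32.8, 25.6 and 23.7 CPM in CTSV shRNA libraries, against 36.8, 41.3 and 35.7 CPM in control libraries. All CTSV shRNA libraries lay below the control libraries, with replicate 1 closest to them, and ECI1 fell by 0.47 on the log2 scale (SE 0.101), to 0.721 times the control level (edgeR adjusted p = 0.00025). The peroxisomal and mitochondrial isomerase gene ECI2 averaged 7.96 ± 1.42 CPM with the CTSV shRNA and 7.96 ± 2.34 CPM with the control shRNA (SD, n = 3 each), with a log2 fold change of -0.0027 and a 95% interval of -0.37 to 0.36. The dienoyl-CoA isomerase gene ECH1 averaged 46.8 ± 1.12 CPM with the CTSV shRNA and 51.9 ± 7.92 CPM with the control shRNA (SD, n = 3 each), with a log2 fold change of -0.15 and a 95% interval of -0.32 to 0.017, and its value rested on single control libraries. It was -0.25 and called lower without control replicate 1 (edgeR adjusted p = 0.0235), and -0.030 without control replicate 2 (edgeR adjusted p = 0.819). The dienoyl-CoA reductase gene DECR1 averaged 44.9 ± 0.226 CPM with the CTSV shRNA and 43.4 ± 1.66 CPM with the control shRNA (SD, n = 3 each), with a log2 fold change of 0.047 and a 95% interval of -0.10 to 0.20.

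Of the 5 peroxisomal genes, 1 rose and 4 were not called. EHHADH (chromosome 3, 185190624 to 185281990, minus strand), the bifunctional hydratase and dehydrogenase of straight and dicarboxylic chains, was at 61.2, 58.5 and 59.4 CPM in CTSV shRNA libraries, against 39.7, 42.2 and 42.3 CPM in control libraries. The spread within each group was small against the gap between them, and EHHADH rose by 0.53 on the log2 scale (SE 0.0735), to 1.44 times the control level (edgeR adjusted p = 3.15e-07). HSD17B4, the other bifunctional enzyme, which serves branched chains and bile acid precursors, was at 289, 311 and 310.1 CPM in CTSV shRNA libraries, against 283, 299.9 and 297 CPM in control libraries. The groups overlapped, with a log2 fold change of 0.049 and a 95% interval of -0.044 to 0.14. The peroxisomal thiolase gene ACAA1 averaged 72.8 ± 5.65 CPM with the CTSV shRNA and 68.3 ± 4.35 CPM with the control shRNA (SD, n = 3 each), with a log2 fold change of 0.094 and a 95% interval of -0.042 to 0.23. Of the oxidases that start the pathway, ACOX3 averaged 16.6 ± 1.07 CPM with the CTSV shRNA and 17.5 ± 2.00 CPM with the control shRNA (SD, n = 3 each), with a log2 fold change of -0.076 and a 95% interval of -0.31 to 0.16, and ACOX2, present at only 2.73 CPM with the CTSV shRNA and 3.47 CPM with the control shRNA, had a log2 fold change of -0.35 and a 95% interval of -0.89 to 0.20.

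PDK4, a kinase that shuts off pyruvate dehydrogenase when fat is the fuel, was at 4.11, 3.51 and 3.47 CPM in CTSV shRNA libraries, against 2.13, 3.19 and 2.74 CPM in control libraries. The groups did not overlap, but PDK4 was not called, with a log2 fold change of 0.46 and a 95% interval of -0.068 to 0.99 (edgeR adjusted p = 0.178).

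Summed over all 32 genes, the level was 3325 ± 26.5 CPM in CTSV shRNA libraries and 3621 ± 32.6 CPM in control libraries (SD, n = 3 each). Without ACSL3, singled out after its values were seen, the sums were 2788 ± 30.7 CPM in CTSV shRNA libraries and 2796 ± 41.2 CPM in control libraries (SD, n = 3 each), and differed by less than their SD. By role (SD, n = 3 each), activation and binding summed to 1236 ± 8.01 CPM with the CTSV shRNA and 1560.0 ± 26.9 CPM with the control shRNA. The acyl-CoA dehydrogenases summed to 589.6 ± 10.4 CPM with the CTSV shRNA and 507 ± 5.40 CPM with the control shRNA, and the carnitine shuttle to 139 ± 4.81 CPM with the CTSV shRNA and 122 ± 5.71 CPM with the control shRNA. For these 3 roles the libraries of the groups did not overlap, with activation lower and both others higher. Within the carnitine shuttle, CROT and SLC25A20 were called higher, CPT1A was called lower, and CPT2 and CRAT were not called. The peroxisomal CROT averaged 26.7 CPM with the CTSV shRNA and 14.0 CPM with the control shRNA. Electron transfer summed to 294 ± 3.43 CPM with the CTSV shRNA and 346 ± 15.3 CPM with the control shRNA, the later mitochondrial steps to 481 ± 8.78 CPM with the CTSV shRNA and 519 ± 1.30 CPM with the control shRNA, and peroxisomal oxidation to 455 ± 5.44 CPM with the CTSV shRNA and 424 ± 15.4 CPM with the control shRNA. Electron transfer and the later steps were lower and peroxisomal oxidation higher, again without overlap, while the auxiliary enzymes overlapped at 127 ± 7.11 CPM with the CTSV shRNA and 141 ± 14.3 CPM with the control shRNA. Within electron transfer, ETFA was called lower, with means of 244.7 CPM with the CTSV shRNA and 305.0 CPM with the control shRNA. ETFDH was called higher, and ETFB was not called. Of the 5 peroxisomal genes, only EHHADH was called, with means of 59.7 CPM with the CTSV shRNA and 41.4 CPM with the control shRNA. A sum can follow 1 of its genes, and the sums are given as a description without a test.

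**Figure D3:**
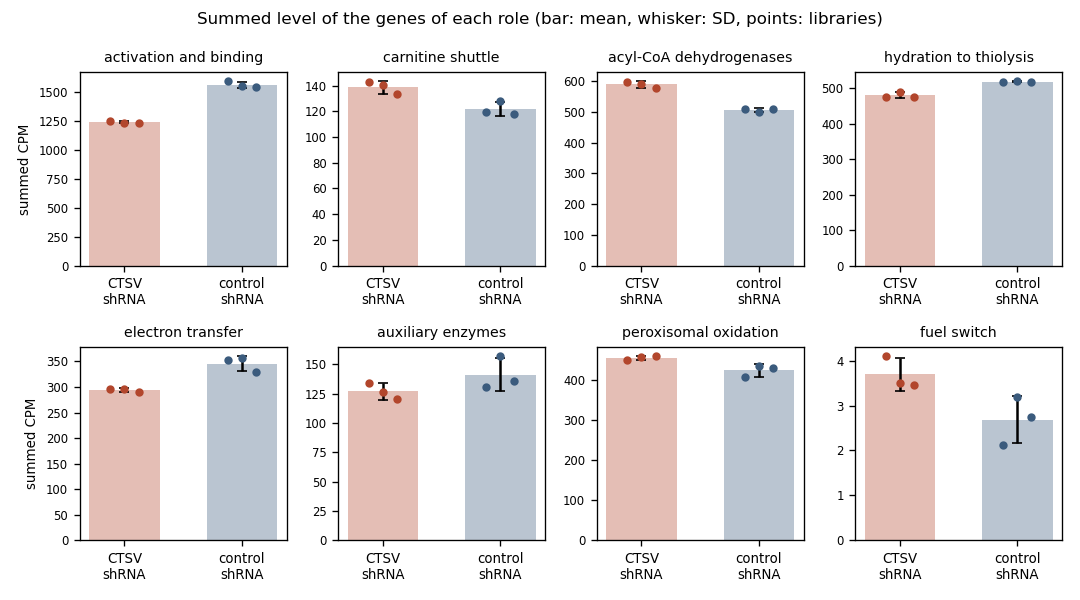
Summed TMM-normalised level (CPM) of the genes of each role, with CTSV shRNA left of control shRNA (bars: mean, whiskers: SD, points: the 3 libraries of each group). The sums for activation, hydration to thiolysis and electron transfer were lower with the CTSV shRNA in all 3 libraries, and those of the dehydrogenases, the carnitine shuttle, peroxisomal oxidation and PDK4 were higher in all 3.

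Ratios within a library show unequal change between partners without dependence on the library scaling. For 11 of 12 pairs formed by shared function or position, the log2 ratios of the groups did not overlap. With 3 libraries a group, the smallest p of an exact permutation test (two-sided) is 0.1, and each of these 11 pairs had that value (0.109 after Benjamini-Hochberg adjustment over the 12). Each of the 12 pairs holds at least 1 gene that was called on its own, so the separation of the ratios is no independent result, and they are given as a description of how far partners moved apart. The log2 ratio of HADHA to HADHB was 1.35, 1.23 and 1.28 in CTSV shRNA libraries, against 1.53, 1.44 and 1.42 in control libraries. That of ETFA to ETFB was 3.86, 4.09 and 4.21 in CTSV shRNA libraries, against 4.69, 4.45 and 4.72 in control libraries. Both ratios of complex subunits were lower with the CTSV shRNA, by 0.17 and 0.57.

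The ratio of EHHADH to HSD17B4, the 2 peroxisomal bifunctional enzymes, differed by 0.48, and that of the acetyltransferase CRAT to the octanoyltransferase CROT by -0.82 (CTSV shRNA minus control). The ratio of CPT1A to the carrier SLC25A20 differed by -0.63 and that of the peroxisomal thiolase ACAA1 to the mitochondrial ACAA2 by 0.32. Among the synthetases, ACSL5 to ACSL1 differed by 1.53, ACSL4 to ACSL3 by 0.46 and ACSL1 to ACSL3 by -0.20. The ratios ECI1 to ECI2 and ACADVL to ACADM differed by -0.50 and 0.24. CPT1A to CPT2 was the pair whose groups overlapped, with a difference of -0.15 and an exact permutation p of 0.6.

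**Figure D4:**
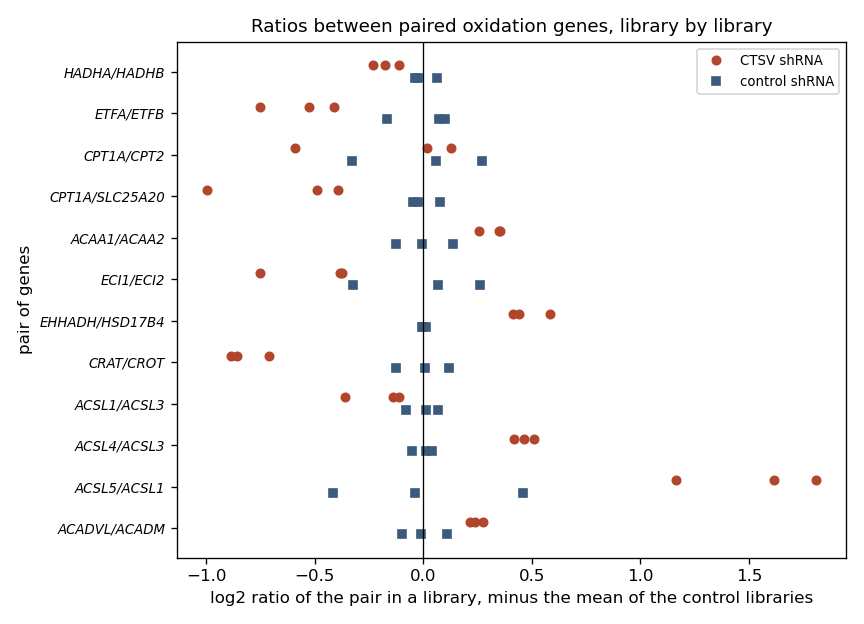
Log2 ratio of each pair of genes in each library, minus the mean of the 3 control libraries, with CTSV shRNA as circles above control shRNA as squares. The groups separate in every pair except CPT1A/CPT2, most widely for ACSL5/ACSL1.

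Other genes of the pathway were read from 4 lists. Of 25 tested genes of other oxidation steps and ketone metabolism, 10 rose (40%, against 18.7% of all tested genes), 4 fell (16%, against 21.6%) and 11 were not called. Of these, 2 fell without CTSV shRNA replicate 1 or 3 or control replicate 3, and 1 fell without control replicate 2. BDH1, the dehydrogenase that interconverts the ketone bodies, was at 9.79 ± 0.801 CPM in CTSV shRNA libraries and 3.13 ± 0.543 CPM in control libraries (SD, n = 3 each) and rose by 1.64 on the log2 scale (SE 0.194), to 3.13 times the control level (edgeR adjusted p = 1.14e-08). OXCT1, the transferase for ketone body use, was at 18.7 ± 1.83 CPM in CTSV shRNA libraries and 11.04 ± 1.34 CPM in control libraries (SD, n = 3 each) and rose by 0.76 on the log2 scale (SE 0.129), to 1.70 times the control level (edgeR adjusted p = 8.62e-06). ACACB, the mitochondrial acetyl-CoA carboxylase whose product malonyl-CoA inhibits the CPT1 enzymes, was at 24.2 ± 1.46 CPM in CTSV shRNA libraries and 11.8 ± 2.24 CPM in control libraries (SD, n = 3 each) and rose by 1.03 on the log2 scale (SE 0.124), to 2.05 times the control level (edgeR adjusted p = 1.5e-08). The median log2 fold change of this list was 0.22, against 0.02 over all tested genes. The thiolase gene ACAT1, named after its values were seen, had a log2 fold change of -0.15 and a 95% interval of -0.28 to -0.016 and was not called.

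Of 23 tested genes of peroxisomal transport, alpha-oxidation and thioesterases, 5 rose and 5 fell (21.7% each, against 18.7% and 21.6% of all tested genes) and 13 were not called. DECR2, called higher (0.31 on the log2 scale, edgeR adjusted p = 0.0189), is counted among the rises both here and in the list of other oxidation steps. Without control replicate 3, 3 rose. With length and GC offsets 3 rose and 9 fell, in a fit that moved calls over all genes toward falls as well. PHYH, the hydroxylase that begins alpha-oxidation of phytanic acid, was at 137 ± 4.28 CPM in CTSV shRNA libraries and 106 ± 2.59 CPM in control libraries (SD, n = 3 each) and rose by 0.37 on the log2 scale (SE 0.0545), to 1.30 times the control level (edgeR adjusted p = 7.15e-07). ABCD3, a peroxisomal membrane transporter, was at 165 ± 5.64 CPM in CTSV shRNA libraries and 142 ± 4.82 CPM in control libraries (SD, n = 3 each) and rose by 0.22 on the log2 scale (SE 0.0524), to 1.16 times the control level (edgeR adjusted p = 0.000884), and offsets for length and GC content ended this call (0.11, edgeR adjusted p = 0.0513). The acyl-CoA thioesterase gene ACOT7 fell by 0.58 on the log2 scale (SE 0.108), to 0.669 times the control level (edgeR adjusted p = 4.21e-05), and the peroxisomal enoyl-CoA reductase gene PECR, which also stands in the list of other oxidation steps, fell by 0.37 on the log2 scale (SE 0.0749), to 0.774 times the control level (edgeR adjusted p = 0.000123).

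Of 15 tested peroxins, which build peroxisomes and import their proteins, 2 rose (13.3%, against 18.7% of all tested genes), 3 fell (20%, against 21.6%) and 10 were not called. PEX11A, a factor in peroxisome division, was at 6.24 ± 0.890 CPM in CTSV shRNA libraries and 3.53 ± 0.678 CPM in control libraries (SD, n = 3 each) and rose by 0.83 on the log2 scale (SE 0.221), to 1.77 times the control level (edgeR adjusted p = 0.00269). PEX26, a peroxisomal membrane protein of the import machinery, fell by 0.24 on the log2 scale (SE 0.0645), to 0.850 times the control level (edgeR adjusted p = 0.00337). PEX3, a membrane biogenesis factor, fell by 0.30 on the log2 scale (SE 0.100), to 0.811 times the control level (edgeR adjusted p = 0.0149), a call lost without CTSV shRNA replicate 3 (edgeR adjusted p = 0.0623) and without control replicate 2 (0.0575). With length and GC offsets the log2 fold changes of PEX26 and PEX3 were -0.42 and -0.54.

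Among 26 tested PPAR regulators and targets outside the 32 genes, 4 rose (15.4%, against 18.7% of all tested genes), 7 fell (26.9%, against 21.6%) and 15 were not called. PPARA itself was at 60.96 ± 7.71 CPM in CTSV shRNA libraries and 63.7 ± 2.87 CPM in control libraries (SD, n = 3 each), with a log2 fold change of -0.062 and a 95% interval of -0.21 to 0.088, and its partner RXRA had a log2 fold change of -0.0037 and a 95% interval of -0.12 to 0.11. PLIN2, a lipid droplet coat protein and PPARA target, was at 102 ± 3.50 CPM in CTSV shRNA libraries and 190.5 ± 4.29 CPM in control libraries (SD, n = 3 each) and fell by 0.90 on the log2 scale (SE 0.0530), to 0.536 times the control level (edgeR adjusted p = 3.42e-16). The catalytic subunits of AMP-activated protein kinase, which lowers malonyl-CoA through acetyl-CoA carboxylase, both rose: PRKAA2 by 0.48 (SE 0.0672, edgeR adjusted p = 3.01e-07) and PRKAA1 by 0.29 (SE 0.0455, edgeR adjusted p = 2.13e-06), against 0.31 and 0.16 with length and GC offsets.

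**Figure D5:**
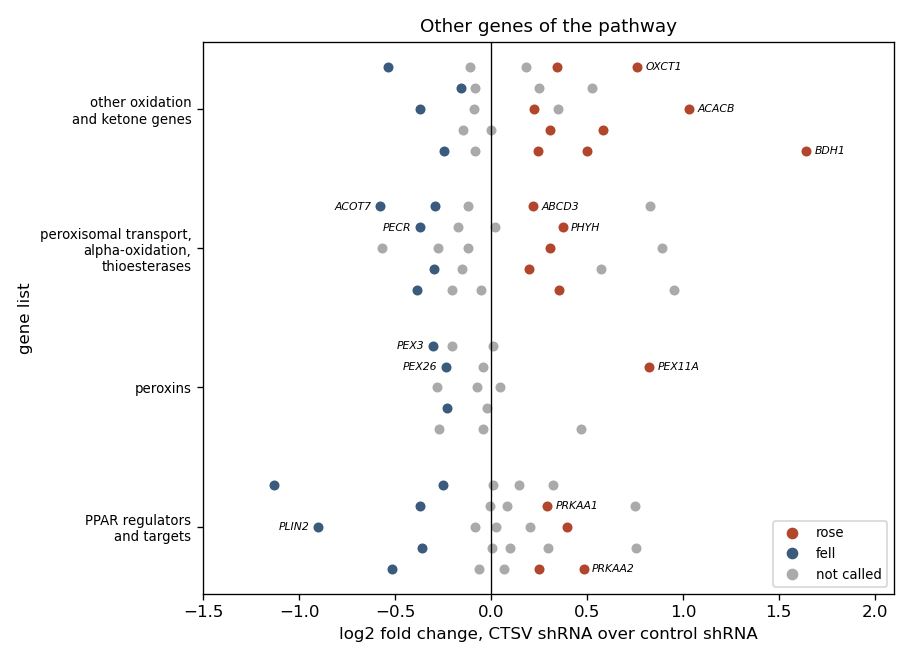
Log2 fold change (CTSV shRNA over control shRNA) of tested genes in the 4 lists of other pathway genes, coloured by call, with the named genes of each list labelled and genes not reported here left out. Most points lie between -0.6 and 0.6, and BDH1 and ACACB lie farthest to the right.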

How the data were processed

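RNA of 6 Huh7 libraries was measured (3 CTSV shRNA, 3 control shRNA). The deposited table gives the authors' raw counts per gene, for which the submitters' processing notes name HISAT2, StringTie, SAMtools and hg38; no source used here gives the counting tool, the annotation or the strand setting. It also holds log2 fold changes by the authors, whose signs against the counts show control over CTSV shRNA. P-values and adjusted p-values by the authors stand beside them, with no testing tool named in the deposited table.

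Of 28915 entries, 1521 that repeated 1 of 127 gene names with identical values were removed, which left 27394 names. Counts were tested with edgeR 4.0.16 (R 4.3.3; TMM, filterByExpr, quasi-likelihood, Benjamini-Hochberg over 15968 genes, calls at an adjusted p under 0.05), after the script had been tested on simulated data. The common coefficient of variation between libraries of a group, as edgeR estimates it, was 6.868%. CPM levels are TMM-scaled. Exon lengths, GC content and overlaps came from a GENCODE annotation of the same build. Replicates of a group differed by more than sampling noise (chi-square per degree of freedom 3.56 to 5.31). Each library was treated as 1 replicate, although this spread may be technical and does not show that the libraries were separate cultures.

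Alternatives were RLE size factors, other count filters, DESeq2 1.42.0, a replicate block, no mitochondrially encoded genes, all entries, length and GC offsets, an adjusted p under 0.01 and leaving out each library. The 32 genes and the lists were chosen with earlier results of these data known. Every one of the 32 is accounted for; from each other list the 4 called genes with the smallest adjusted p are named, apart from some that are not reported here. Promoters were chosen among called genes of families with several members, apart from those said to be added later.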

Additional observations from a re-analysis of the deposited data

How the results depend on the processing

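Of the 32 genes, 8 rose and 8 fell in the edgeR fit. Leaving out each library in turn gave 5 to 8 that rose and 7 to 8 that fell, with the lowest number of rises without control replicate 3. The replicate numbers do not pair the libraries (correlations of -0.021, 0.0081 and 0.039 between same-numbered libraries), and with the replicate number as a block 8 rose and 8 fell. Depth limits ACADL, which did not pass the filter, and ACSL5, ACOX2 and PDK4, whose intervals are the widest. The median over the tested genes of the 32 was -0.089 with length and GC offsets (median of all tested genes -0.070) and -0.055 to 0.060 when a library was left out, with values below 0 without CTSV shRNA replicate 2 or control replicate 1; the cause was not tested.

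Among the other lists, the genes called lower in other oxidation and ketone metabolism numbered 1 at an adjusted p under 0.01 and 1 to 3 when a library was left out, against 4. In peroxisomal transport, alpha-oxidation and thioesterases, 3 genes were called higher with DESeq2, with length and GC offsets and at an adjusted p under 0.01, and 3 to 4 when a library was left out, against 5. With length and GC offsets 9 of that list were called lower, against 5. At an adjusted p under 0.01, 1 peroxin was called lower, against 3, which follows from the stricter threshold.

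Values of genes that were not called changed sign near 0. The log2 fold change of ECI2 was 0.0041 with a mean CPM of at least 1, 0.018 with the replicate block and -0.16 to 0.25 when a library was left out. The log2 fold change of HADHB was -0.0069 with all entries kept, -0.041 with length and GC offsets and -0.017 to 0.062 when a library was left out. With length and GC offsets, HADH was at -0.089, HSD17B4 at -0.091 and DECR1 at -0.024. Leaving out a library gave -0.055 to 0.11 for HADH, -0.25 to 0.010 for ACADS, -0.15 to 0.0076 for ACOX3 and -0.31 to 0.072 for the ratio of CPT1A to CPT2. The cause of these sign changes was not tested.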
